A study of Homo sapiens with 12 samples.

Results

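MDA-MB-468 is an established human breast cancer cell line, and its baseline expression is described here from the 2 control libraries of that line among the 12 RNA-seq libraries of the series. They were compared with the 2 control libraries of SUM149PT and the 2 of HCC38, also established basal-like breast cancer lines, so that 6 of the 12 libraries were used. All 6 came from cells given a non-targeting locked nucleic acid oligonucleotide (LNA NS) at 50 nM when they were seeded, with the medium replaced after 6 h and the cells harvested at 24 h. The other 6 libraries came from the same lines after knock-down of a lncRNA with LNA1 and LNA2 and served only as an alternative. According to the methods of the study, MDA-MB-468 was grown in DMEM/F12 with fetal bovine serum, SUM149PT in DMEM/F12 with a lower share of serum plus insulin and hydrocortisone, and HCC38 in RPMI with serum. Line and medium therefore cannot be told apart in any comparison below. The lines were not authenticated by the study, each stands for 1 tumor, and nothing in the labels ties the 2 libraries of a line to different cultures. The p-values thus reflect only how far these libraries spread, and that spread may be technical.

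Basal-like breast cancers mostly lack the estrogen and progesterone receptors and ERBB2 amplification, and often carry the keratins of the basal layer of the mammary duct. EGFR is a receptor tyrosine kinase that binds EGF-family ligands and signals through the RAS and PI3K pathways. RB1 encodes the retinoblastoma protein, which holds E2F transcription factors inactive until cyclin-dependent kinases phosphorylate it, and MDA-MB-468 is widely used as an EGFR-rich model without functional RB1.

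Levels are given as counts of a gene scaled to the library total (CPM) after TMM normalization, in the order of library R1 and R2 of each line. A gene was called higher or lower when its Benjamini-Hochberg adjusted p was under 0.1 in edgeR's quasi-likelihood test and its change exceeded 2-fold. Higher or lower than both lines means that this held against SUM149PT and against HCC38 separately. Both comparisons use the same 2 MDA-MB-468 libraries. Of the genes named below that were called against both lines, 82 of 82 higher genes had both MDA-MB-468 libraries above the other 4, and 96 of 96 lower genes had both below them. Most of these genes were chosen on the same values, and the call itself requires a change over 2-fold against each line. Such separation is therefore nearly built in, and these counts are only a description. The share over all genes called was not counted. The libraries held 32187835 to 48229126 gene counts (36675734 to 37509863 in MDA-MB-468). On log CPM, libraries of the same line correlated across genes at r = 0.991 to 0.993 and libraries of different lines at 0.826 to 0.848. RNA amounts in bulk samples do not separate fewer cells that express a gene from less RNA per cell.

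Of 19590 genes tested, 4146 (21.2%) were higher and 4031 (20.6%) lower in MDA-MB-468 than in SUM149PT. Against HCC38, 4038 (20.6%) were higher and 4750 (24.2%) lower. Both criteria together left 2133 genes higher than both lines (10.9% of the genes tested) and 2304 lower than both (11.8%). Counts of called members in the gene lists below are to be read beside these shares. The same rule found 1696 genes (8.66%) higher and 2112 (10.8%) lower in SUM149PT than in both other lines, and 2404 (12.3%) higher and 1576 (8.04%) lower in HCC38, so the number of genes set apart in MDA-MB-468 lay in the range of the other lines for genes higher and above it for genes lower. Of the genes lower in MDA-MB-468, 933 were lower by more than 8-fold against each line and 483 by more than 32-fold, while 492 and 177 of the higher genes passed those limits. By class, 1506 of 14553 protein-coding genes (10.3%) were higher and 1635 (11.2%) lower than both, against 375 (13.1%) and 437 (15.2%) of 2873 lncRNA genes.

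**Figure D1:**
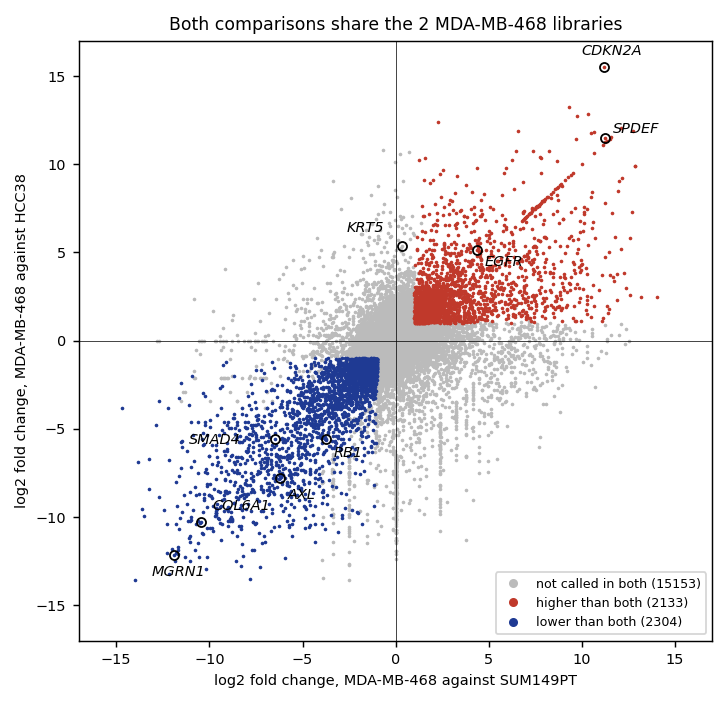
Log2 fold change of MDA-MB-468 against SUM149PT (x axis) and against HCC38 (y axis) for the 19590 genes tested, 1 point per gene, with 2133 genes higher than both lines in red, 2304 lower than both in blue and the others in grey. Circled genes are discussed in the text, and the straight rows of points are genes with 0 counts in a line, whose fitted fold changes depend on the prior count of the fit.

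EGFR RNA was far more abundant in MDA-MB-468 than in either other line. Its level was 4951 and 5915 CPM in MDA-MB-468, 303 and 230.3 in SUM149PT and 134 and 177 in HCC38. The lowest MDA-MB-468 library was above the highest of the other lines, and in MDA-MB-468 EGFR ranked 4 among protein-coding genes by CPM in each library, against 535 to 1665 in the other libraries. The log2 fold change was 4.35 (standard error 0.181, adjusted p = 6.9e-09) against SUM149PT and 5.13 (standard error 0.188, adjusted p = 2.9e-09) against HCC38 in edgeR's quasi-likelihood test. After knock-down of the lncRNA the MDA-MB-468 libraries still held 3028 and 2673 CPM.

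The other ERBB receptors did not share this pattern. ERBB2 was at 59.4 and 68 CPM in MDA-MB-468, 60.1 and 50.3 in SUM149PT and 157 and 172 in HCC38, with log2 fold changes of 0.21, which did not pass, and −1.37, which was called lower. ERBB3, a receptor with an impaired kinase that signals through its partners, was at 78.4 and 80.0 CPM in MDA-MB-468, 62.3 and 52.8 in SUM149PT and 65.3 and 76.4 in HCC38, and neither difference reached 2-fold. ERBB4 had 0 counts in both libraries of MDA-MB-468 and of SUM149PT and 0.705 and 0.939 CPM in HCC38. Of the 4 ERBB receptors tested, 1 was higher and 0 were lower than both lines.

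Several ligands of these receptors were lower in MDA-MB-468. Of 10 EGF-family ligands tested, 0 were higher and 4 were lower than both lines. Against SUM149PT 2 were higher and 4 lower, and against HCC38 0 were higher and 9 lower. The list had a median log2 fold change of −0.90 against SUM149PT and −2.50 against HCC38, beside −0.01 and −0.04 over all genes tested. EREG, which encodes the EGFR ligand epiregulin, was at 0.564 and 0.649 CPM in MDA-MB-468, 174 and 155 in SUM149PT and 70.1 and 77.7 in HCC38, a log2 fold change of −8.07 and −6.92. AREG, for amphiregulin, was at 0.161 and 0.234 CPM in MDA-MB-468, 46 and 42.1 in SUM149PT and 3.01 and 2.9 in HCC38. EPGN, for epigen, was at 0.376 and 0.130 CPM in MDA-MB-468, 29.3 and 27.4 in SUM149PT and 11.6 and 10.4 in HCC38. NRG1, whose neuregulin products bind ERBB3 and ERBB4, had 0 counts in both MDA-MB-468 libraries, with 10.9 and 12.4 CPM in SUM149PT and 16.7 and 19 in HCC38. Against a floor of 3 counts over the 2 libraries, NRG1 was at least 291-fold lower than in SUM149PT and at least 451-fold lower than in HCC38. No library of MDA-MB-468 reached the level of these 4 ligands in any library of the other lines.

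**Figure D2:**
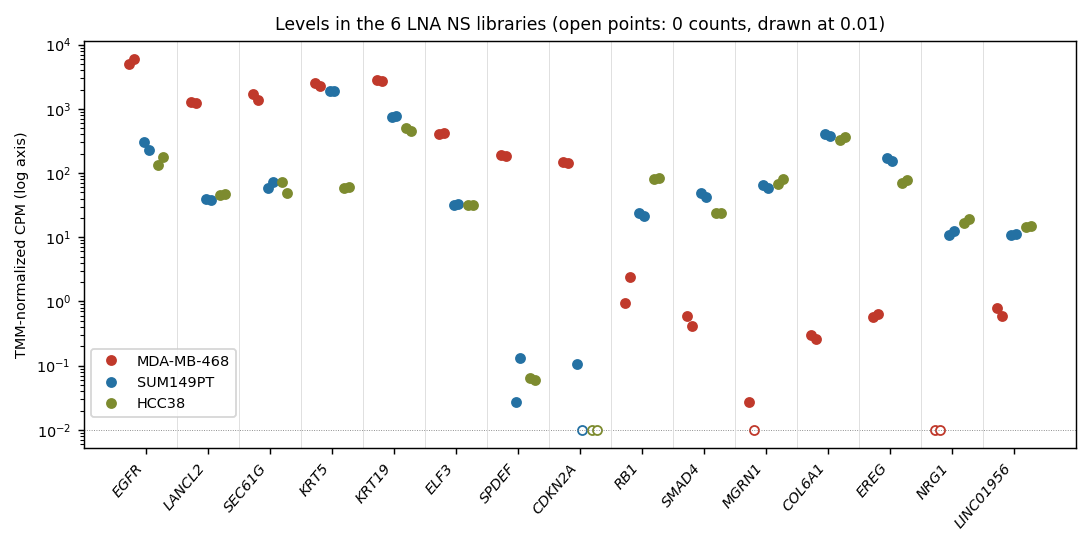
TMM-normalized CPM on a log axis of 15 genes in the 6 LNA NS libraries, 2 points per line, with open points for libraries that hold 0 counts, drawn at 0.01. EGFR, LANCL2, SEC61G, KRT5, KRT19, ELF3, SPDEF and CDKN2A lie above all other libraries in MDA-MB-468, KRT5 by less than 2-fold against SUM149PT. RB1, SMAD4, MGRN1, COL6A1, EREG, NRG1 and LINC01956 lie below them.

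EGFR lies on chromosome 7 of GRCh37 from 55086710 to 55279321. All 14 protein-coding genes tested within 1 Mb of it were higher than both lines, and these 14 genes, from SEC61G to NUPR2, formed the longest run of neighboring tested protein-coding genes called in 1 direction in MDA-MB-468. SEC61G, a subunit of the channel that passes proteins into the endoplasmic reticulum, was at 1713 and 1359 CPM in MDA-MB-468, 58.7 and 72.1 in SUM149PT and 73.1 and 49.8 in HCC38. LANCL2 was at 1273 and 1231 CPM in MDA-MB-468, 39 and 37.9 in SUM149PT and 46 and 47.7 in HCC38, log2 fold changes of 5.03 and 4.74. VOPP1 was at 501 and 441 CPM in MDA-MB-468, 25.6 and 28.5 in SUM149PT and 39.4 and 34.1 in HCC38. In their order along the chromosome SEC61G, EGFR, LANCL2 and VOPP1 had log2 fold changes of 4.55, 4.35, 5.03 and 4.12 against SUM149PT. Reads of SEC61G and CHCHD2 may be shared with processed pseudogenes of the same sequence, which makes their levels less certain. Smaller changes were found for several genes toward the far end of the run. CCT6A, a chaperonin subunit, had log2 fold changes of 2.00 and 1.80, CHCHD2 of 1.99 and 2.10, and SUMF2 of 1.38 and 1.60. In all, 27 runs of at least 4 neighboring genes were higher and 32 were lower than both lines, and DNA copy number was not measured here.

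Among 33 other receptor tyrosine kinases tested, 8 were higher and 5 lower than both lines (24.2% and 15.2%, beside 10.9% and 11.8% of all genes tested). EPHB6, an ephrin receptor without kinase activity, was at 250.1 and 259 CPM in MDA-MB-468, 9.78 and 8.57 in SUM149PT and 1.95 and 2.54 in HCC38. EPHA4 was at 34 and 35.2 CPM in MDA-MB-468, 1.7 and 1.35 in SUM149PT and 4.34 and 5.33 in HCC38. The insulin receptor INSR was at 26.4 and 32.7 CPM in MDA-MB-468, 2.21 and 1.48 in SUM149PT and 2.52 and 2.8 in HCC38. ROR1, a receptor for WNT5A, was higher than both lines at 36.1 and 45.1 CPM, with 11.7 and 8.18 in SUM149PT and 2.67 and 2.88 in HCC38. Its paralog ROR2 was lower than both lines, at 0.0537 and 0.0519 CPM in MDA-MB-468, 45.7 and 40.5 in SUM149PT and 7.07 and 7.81 in HCC38. AXL, a receptor for GAS6 that is often high in mesenchymal-type breast cancer lines, was at 2.07 and 1.84 CPM in MDA-MB-468, 149 and 136 in SUM149PT and 424 and 428 in HCC38, log2 fold changes of −6.19 and −7.77. EPHA2 was at 121 and 129.8 CPM, below 559 and 517 in SUM149PT and 618 and 699.9 in HCC38.

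RB1 was nearly silent in MDA-MB-468. Its level was 0.940 and 2.44 CPM in MDA-MB-468, 23.6 and 21.7 in SUM149PT and 79.3 and 83.8 in HCC38, and the MDA-MB-468 libraries held 35 and 94 counts. The MDA-MB-468 libraries differed more in proportion than those of the other lines did, but both lay far below them. The log2 fold change was −3.73 (standard error 0.270, adjusted p = 5.2e-07) against SUM149PT and −5.58 (standard error 0.274, adjusted p = 2.4e-08) against HCC38 in the edgeR test. Leaving out 1 library at a time gave −4.58 to −3.20 and −6.44 to −5.06. The deposited values count whole genes, so they do not show which part of RB1 the remaining reads came from.

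RB1 lies on chromosome 13 of GRCh37 from 48877880 to 49173572. Of 14 protein-coding genes tested within 1 Mb, 6 were lower than both lines and 0 higher. LPAR6, a lysophosphatidic acid receptor gene that lies inside an intron of RB1 on the other strand, had 0 counts in both MDA-MB-468 libraries, with 0.216 and 0.263 CPM in SUM149PT and 5.22 and 4.02 in HCC38. RCBTB2, whose annotated span also lies within that of RB1 on the other strand, was at 0.483 and 0.675 CPM in MDA-MB-468, 5.89 and 5.42 in SUM149PT and 14.3 and 14.1 in HCC38. Library preparation kept strand, but no source used here gives the strand setting of the counting, so reads of these 3 overlapping genes may not be fully separated. Before the start of RB1, SUCLA2 and MED4 were lower to a smaller degree, with log2 fold changes of −1.48 and −1.36 against SUM149PT. They end a run of 9 lower genes that starts at ZC3H13, while ITM2B, between MED4 and RB1, was at 40.1 and 39.9 CPM in MDA-MB-468, 55 and 55.9 in SUM149PT and 334 and 272 in HCC38 and was called lower only against HCC38.

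The RB axis as a whole held 28 tested genes, of which 4 were higher and 3 lower than both lines. That is 14.3% and 10.7%, near the 10.9% and 11.8% of all genes tested. The kinase genes CDK4 and CDK6, whose products phosphorylate RB1, were lower, CDK6 at 33.5 and 31.1 CPM in MDA-MB-468, 123 and 112 in SUM149PT and 140.2 and 146 in HCC38. CDK4 was at 75 and 78.6 CPM in MDA-MB-468, 163 and 164 in SUM149PT and 198 and 188 in HCC38. CDK4 fell short of 2-fold against SUM149PT with library size scaling (−0.98) and in the knock-down libraries (−0.87). CDKN2A, which encodes the CDK4 and CDK6 inhibitor p16 and, from another reading frame, the MDM2 inhibitor p14ARF, was at 146 and 143 CPM in MDA-MB-468. SUM149PT held 0.108 and 0 CPM and HCC38 had 0 counts, so the level was 2675-fold that of SUM149PT, which rests on 4 counts there, and at least 4663-fold higher than in HCC38. Its neighbor CDKN2B, for the inhibitor p15, was at 23.6 and 22 CPM, with 0 counts in SUM149PT and 0.0214 and 0.0200 CPM in HCC38. CDKN2D, for p19, was higher as well, at 54 and 57.4 CPM in MDA-MB-468, 22.7 and 25.4 in SUM149PT and 13.6 and 11.8 in HCC38. E2F target genes of the G1/S transition and DNA replication, 44 tested, gave 0 higher and 3 lower than both lines, with medians of −0.34 and −0.41. At 0% and 6.82%, both shares lay below the 10.9% and 11.8% of all genes tested. The 3 lower members were POLE2, MCM10 and MCM4, all needed for DNA replication. POLE2, a DNA polymerase ε subunit, was at 10.6 and 8.33 CPM in MDA-MB-468, 27.9 and 31.9 in SUM149PT and 34 and 26.9 in HCC38. MCM10 was at 34 and 37.6 CPM in MDA-MB-468, 86.7 and 79.1 in SUM149PT and 164 and 166 in HCC38. MCM4 was at 179 and 193 CPM in MDA-MB-468, 441 and 396 in SUM149PT and 376 and 369 in HCC38. MCM4 was at the 2-fold limit against HCC38. It fell short of it without MDA-MB-468 replicate 1 (−0.95) or HCC38 replicate 1, and in the knock-down libraries it stood at −0.83 against SUM149PT and −0.37 against HCC38.

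CDKN2A lies on chromosome 9 of GRCh37 from 21967751 to 21995300. Of 8 protein-coding genes tested within 1 Mb, 5 were higher and 0 lower than both lines. The other 3, FOCAD, HACD4 and KLHL9, lie beyond IFNE, and HACD4 had a log2 fold change of −3.78 against HCC38. The 5 belong to a run of 10 neighboring tested genes, from IFNE to IFT74 (21480838 to 27066132), all higher than both lines. Most of this run was at or near 0 in the other lines. MTAP, a methionine salvage enzyme, was at 30.2 and 28.1 CPM in MDA-MB-468, 0 and 0.0328 in SUM149PT and 6.69 and 8.33 in HCC38. TUSC1 was at 22.5 and 23 CPM, with 0 counts in SUM149PT and 0 and 0.0400 CPM in HCC38, and ELAVL2, a neuronal RNA-binding protein gene, at 6.31 and 7.53 CPM with 0 counts in all 4 libraries of the other lines. CAAP1 and PLAA, toward the end of the run, were at 0 or near it in HCC38 but not in SUM149PT. CAAP1 was at 15.7 and 17.3 CPM in MDA-MB-468, 3.19 and 3.61 in SUM149PT and 0 and 0 in HCC38. PLAA was at 47.7 and 41.7 CPM in MDA-MB-468, 15.3 and 15.3 in SUM149PT and 0.0214 and 0.0400 in HCC38. IFNE, at the other end, was at 0.349 and 0.467 CPM in MDA-MB-468, 0 and 0 in SUM149PT and 0.128 and 0.160 in HCC38, and its call against HCC38 was lost without any 1 of the MDA-MB-468 or HCC38 libraries (log2 fold changes of 1.25 to 1.68).

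**Figure D3:**
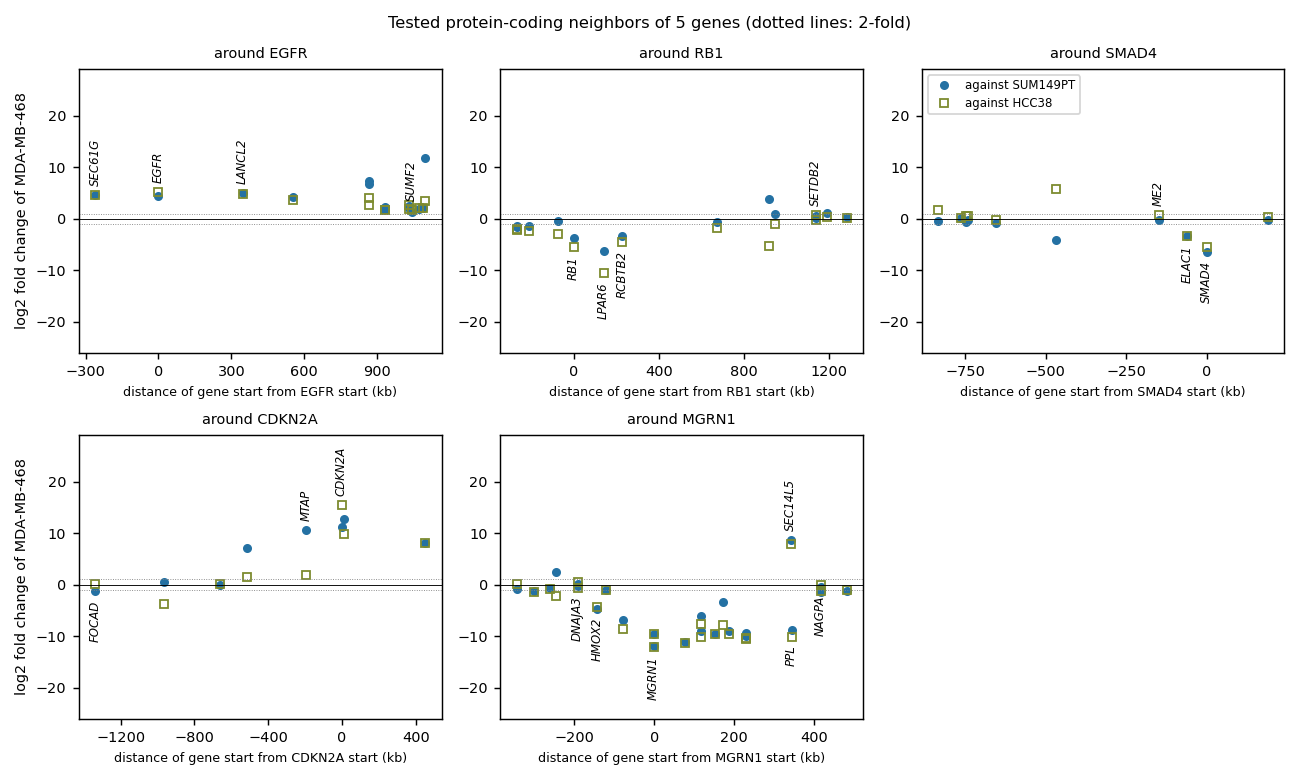
Log2 fold change of MDA-MB-468 against SUM149PT (filled circles) and HCC38 (open squares) for tested protein-coding genes within 1 Mb of EGFR, RB1, SMAD4 and CDKN2A and around MGRN1, plotted at the distance in kb between gene starts along the chromosome. Values stay above 2-fold throughout the EGFR panel, fall at RB1, LPAR6 and RCBTB2 and at ELAC1 and SMAD4, rise around CDKN2A, and drop from HMOX2 to PPL around MGRN1. Fitted values of genes with 0 counts in a line depend on the prior count.

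Of 34 tumor suppressor genes tested, 5 were higher and 4 lower than both lines (14.7% and 11.8%, beside 10.9% and 11.8% of all genes tested). SMAD4 is the common partner of receptor-activated SMAD proteins in TGF-β and BMP signaling. Its level was 0.591 and 0.415 CPM in MDA-MB-468, 48.4 and 42.5 in SUM149PT and 23.7 and 23.9 in HCC38. The log2 fold changes were −6.49 (adjusted p = 4.2e-10) and −5.56 (adjusted p = 1.5e-09) in the edgeR test. Both MDA-MB-468 libraries were far below every other library. SMAD4 lies on chromosome 18 of GRCh37 from 48554898 to 48611415, and the adjoining gene ELAC1, a tRNA-processing nuclease, was also lower at 0.564 and 0.312 CPM in MDA-MB-468, 4.13 and 4.63 in SUM149PT and 4.94 and 4.04 in HCC38. None of the other 8 protein-coding genes tested within 1 Mb was lower than both lines, the next gene ME2 being at 70.7 and 66.5 CPM in MDA-MB-468, 76.9 and 77.8 in SUM149PT and 44.1 and 45 in HCC38. DLC1, a GTPase-activating protein, held 0 and 0.0260 CPM in MDA-MB-468, 5.08 and 3.55 in SUM149PT and 12 and 12.7 in HCC38.

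Of 24 genes of the PI3K pathway, 5 were higher and 1 lower than both lines (20.8% and 4.17%, beside 10.9% and 11.8% of all genes tested). PIK3R3 was at 177 and 178 CPM in MDA-MB-468, 27.8 and 27.9 in SUM149PT and 33.9 and 33.7 in HCC38. IRS2, an adaptor of the insulin receptor, was at 66.3 and 88.1 CPM in MDA-MB-468, 29.6 and 22.7 in SUM149PT and 20.6 and 25.5 in HCC38. PIK3R1, a regulatory subunit of PI3K that was also among the tumor suppressors, was higher at 46.7 and 44.2 CPM, against 20.2 and 17.1 CPM in SUM149PT and 9.6 and 9.71 in HCC38. In the knock-down libraries the change of PIK3R1 against SUM149PT was 0.26 and was not called. The catalytic subunit gene PIK3CD was lower, at 2.18 and 2.88 CPM in MDA-MB-468, 57.9 and 54 in SUM149PT and 16.7 and 19 in HCC38.

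In the TGF-β and BMP pathway 3 of 34 tested genes were higher and 8 lower than both lines, with medians of −0.54 and −0.57. That is 8.82% and 23.5%, beside 10.9% and 11.8% of all genes tested. INHBB, for the βB subunit of activins and inhibins, was at 114 and 130.2 CPM in MDA-MB-468, 1.05 and 0.394 in SUM149PT and 0.577 and 0.779 in HCC38. SMAD1, a BMP-activated SMAD, was at 32.2 and 35.5 CPM in MDA-MB-468, 9.29 and 9.52 in SUM149PT and 10.6 and 10.9 in HCC38. ID1, a direct BMP target, was lower at 37.1 and 36.2 CPM in MDA-MB-468, 178 and 197 in SUM149PT and 337 and 322 in HCC38. The ligand BMP4 was at 6.04 and 6.39 CPM in MDA-MB-468, 32 and 27.6 in SUM149PT and 30.5 and 30.1 in HCC38. The receptor TGFBR2 was at 46.2 and 48.9 CPM in MDA-MB-468, 133 and 114 in SUM149PT and 143 and 162 in HCC38. The call of BMP4 against HCC38 (−0.81) was lost in the knock-down libraries.

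A segment of chromosome 16 was almost without reads in MDA-MB-468. From HMOX2 to PPL (GRCh37, chromosome 16, 4524691 to 5010742), 12 of 13 protein-coding genes tested were lower than both lines, and 12 of the 13 were under 0.2 CPM in both MDA-MB-468 libraries. The exception in the call was SMIM22, with 0 counts in MDA-MB-468 and 0.0270 and 0.0328 CPM in SUM149PT. MGRN1, a ubiquitin ligase, was at 0.0269 and 0 CPM, which is 1 count in all, against 65.3 and 58.3 in SUM149PT and 67.8 and 79.9 in HCC38. The ratio of SUM149PT to MDA-MB-468 from the summed counts was 4707 (844 to 185942), with the 95% exact interval in brackets, which covers counting error only. UBN1, a subunit of a histone H3.3 chaperone, was at 0.0537 and 0.0779 CPM in MDA-MB-468, 76.1 and 63.4 in SUM149PT and 98.1 and 123 in HCC38. GLYR1 was at 0.0269 and 0.130 CPM in MDA-MB-468, 61.9 and 52.8 in SUM149PT and 90.9 and 121 in HCC38. PPL, for the cornified envelope protein periplakin, was at 0.0537 and 0.156 CPM in MDA-MB-468, with 51.2 and 45.5 in SUM149PT and 103 and 134 in HCC38. At one edge HMOX2, a heme oxygenase, was at 3.81 and 5.22 CPM in MDA-MB-468, 110.0 and 122 in SUM149PT and 94.9 and 83.2 in HCC38. NMRAL1, which overlaps it on the other strand, was lower at 52.5 and 51.9 CPM in MDA-MB-468, 105 and 110.4 in SUM149PT and 112 and 99.5 in HCC38. The change of NMRAL1 against HCC38 was −1.02 and fell short of 2-fold without HCC38 replicate 1 (−0.94), and that against SUM149PT did so with library size scaling (−0.94). At the other edge SEC14L5, a gene of the SEC14 lipid-transfer family whose start overlaps that of PPL on the other strand, was higher than both lines at 26.2 and 26.8 CPM, with 0.0810 and 0.0328 in SUM149PT and 0.0641 and 0.140 in HCC38.

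The promoters of MGRN1 and SEC14L5 are shown because MGRN1, within the segment, was lower and SEC14L5, at its edge, higher than both lines. Sequences are from RefSeq on GRCh38.p14, 250 bases before and 50 after the RefSeq gene start. They run 5′ to 3′ on the plus strand, with CG dinucleotides in capitals. The RefSeq start, that of MGRN1 above all, need not be the start in the annotation used for the GRCh37 positions above. MGRN1 (chr16:4624576-4624875) holds 32 and SEC14L5 (chr16:4958080-4958379) holds 18, both at 68.3% G and C. DNA methylation was not measured here.
MGRN1: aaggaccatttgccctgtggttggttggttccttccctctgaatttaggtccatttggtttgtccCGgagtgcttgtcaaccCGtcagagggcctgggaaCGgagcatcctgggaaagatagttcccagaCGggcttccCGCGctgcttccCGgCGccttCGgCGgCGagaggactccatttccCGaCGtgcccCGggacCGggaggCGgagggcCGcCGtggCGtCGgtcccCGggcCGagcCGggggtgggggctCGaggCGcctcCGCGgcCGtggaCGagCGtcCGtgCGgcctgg
SEC14L5: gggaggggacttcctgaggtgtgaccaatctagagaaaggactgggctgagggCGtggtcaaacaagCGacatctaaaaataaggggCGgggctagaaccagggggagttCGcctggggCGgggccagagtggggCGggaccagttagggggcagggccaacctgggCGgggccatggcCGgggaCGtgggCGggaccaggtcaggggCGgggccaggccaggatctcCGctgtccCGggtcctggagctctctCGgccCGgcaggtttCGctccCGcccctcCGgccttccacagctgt

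Genes were called lost when both MDA-MB-468 libraries were under 0.1 CPM and all 4 other libraries at 5 CPM or more. There were 61, of which 57 are protein-coding, and 13 had 0 counts in both MDA-MB-468 libraries. Of the 61, 40 met the same rule in the knock-down libraries, where 49 stayed under 0.1 CPM in both MDA-MB-468 libraries and all 61 under 1 CPM. MGRN1, UBN1 and other genes of the chromosome 16 segment were among them. HDGFL3 was at 0.0537 and 0.0260 CPM in MDA-MB-468, 74 and 72.8 in SUM149PT and 59 and 55.9 in HCC38. B4GALNT1, a ganglioside synthase, was at 0.0537 and 0.0779 CPM in MDA-MB-468, 59 and 52.8 in SUM149PT and 54.6 and 64.3 in HCC38. RAB32, a small GTPase of melanosome and mitochondrial traffic, was at 0.0537 and 0 CPM in MDA-MB-468, 39.8 and 44.7 in SUM149PT and 42.9 and 33.9 in HCC38. CPS1, a urea cycle enzyme, was at 0.0269 and 0.0779 CPM in MDA-MB-468, 38.1 and 32.3 in SUM149PT and 72 and 81 in HCC38. The T-box factor TBX3, which takes part in mammary development, was at 0.0269 and 0.0519 CPM in MDA-MB-468, 33.2 and 27.1 in SUM149PT and 42.9 and 52.7 in HCC38. WIPF1, which binds the actin regulator WASP, was at 0.0269 and 0.0260 CPM in MDA-MB-468, 25.1 and 22.8 in SUM149PT and 25.5 and 29.5 in HCC38. ZNF618 had 0 counts in MDA-MB-468 and 55.9 and 47.1 CPM in SUM149PT and 31.6 and 44.6 in HCC38, at least 1312-fold and 968-fold lower. Others with 0 counts included the glycosyltransferase gene GALNT13, the monocarboxylate transporter partner EMB, the phosphodiesterase PDE10A, the secreted pentraxin PTX3, the sodium-calcium exchanger SLC8A1, the metalloreductase STEAP2 and the mRNA decapping factor DCP1B. For these 7 the smallest bound was a level at least 256-fold lower, for STEAP2 against SUM149PT, and the largest at least 749-fold lower, for EMB against HCC38.

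The reverse rule, 5 CPM or more in both MDA-MB-468 libraries and under 0.1 CPM in the 4 others, held for 21 genes, of which 15 are protein-coding, and 7 of the 21 met it in the knock-down libraries. MAGEA3, a cancer-testis antigen gene of the X chromosome, was at 182 and 175 CPM in MDA-MB-468, 0.0540 and 0.0657 in SUM149PT and 0.0427 and 0.0799 in HCC38. CDKN2B and TUSC1 of chromosome 9 were in this set. PAX7, a paired-box factor of muscle stem cells, was at 21 and 24.4 CPM, with 1 count over the other 4 libraries. ALOX5, a leukotriene-synthesizing lipoxygenase, was at 12.9 and 12.7, CSF2RA, a subunit of the GM-CSF receptor, at 12 and 12.1, and UNC5A, a netrin receptor, at 13.5 and 12.4, each under 0.1 CPM elsewhere. The lncRNA LINC01895 was at 15.3 and 11.7 CPM with 0 counts in the 4 other libraries, at least 303-fold and 435-fold higher.

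Among the genes most above both lines by size of change was SLC1A6, a glutamate transporter, at 645 and 626 CPM in MDA-MB-468, 0.108 and 0.0657 in SUM149PT and 0.107 and 0.220 in HCC38. CASP14, a caspase of the cornifying epidermis whose gene lies on chromosome 19 near SLC1A6, was at 1539.6 and 1445 CPM in MDA-MB-468, 1.94 and 1.54 in SUM149PT and 0.256 and 0.180 in HCC38, log2 fold changes of 9.73 and 12.73. MAGEA12 (190.0 and 204 CPM in MDA-MB-468, 0.135 and 0.0985 in SUM149PT and 0.0214 and 0.0799 in HCC38) and MAGEA6 (157 and 152 CPM in MDA-MB-468, 0.0540 and 0.164 in SUM149PT and 0.0214 and 0.0599 in HCC38) are near-identical to MAGEA3 and lie beside it, so the split of reads among these copies is uncertain. Among cancer-testis antigens as a list, 3 of 8 tested were higher and 0 lower than both lines, all 3 of them MAGEA genes. That is 37.5% and 0%, beside 10.9% and 11.8% of all genes tested. Against SUM149PT 6 were higher and 0 lower, but against HCC38 3 were higher and 4 lower, with a median log2 fold change of −1.14. Of the 31 members, 25 were under 1 CPM in all 6 libraries and 12 had 0 counts throughout.

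Several luminal transcription factors were higher in MDA-MB-468 than in either other line. Of 12 tested genes in the list of luminal factors and secretory genes, 6 were higher and 1 was lower, with medians of 2.29 and 2.65 (1.62 and 2.65 when genes at 0 in a line were set to their bound). SPDEF, an ETS factor of secretory epithelium, was at 193 and 182 CPM in MDA-MB-468. The other lines held 0.0270 and 0.131 (SUM149PT) and 0.0641 and 0.0599 CPM (HCC38). Its log2 fold changes of 11.24 and 11.49 thus rest on few counts there. ELF3, also an ETS factor, was at 404 and 427 CPM in MDA-MB-468, 31.7 and 32.5 in SUM149PT and 31.9 and 31.3 in HCC38. EHF, of the same family, was at 93.9 and 112 CPM in MDA-MB-468, 16.2 and 10.6 in SUM149PT and 7.57 and 8.93 in HCC38. All 3 ETS factors were thus above every library of the other lines. FOXA1, the pioneer factor that opens chromatin for the estrogen receptor, was at 52.8 and 56.3 CPM in MDA-MB-468, 17.4 and 17.5 in SUM149PT and 1.52 and 1.72 in HCC38. The claudin gene CLDN8 was at 40.7 and 43.7 CPM in MDA-MB-468, 0.0540 and 0.0328 in SUM149PT and 0.834 and 0.719 in HCC38. AGR2, a secretory-pathway disulfide isomerase, was at 22 and 17.9 CPM in MDA-MB-468, 5.73 and 7.45 in SUM149PT and 0.812 and 1.14 in HCC38. GATA3, named after its values were seen because it is the usual luminal marker, was at 66.2 and 69.8 CPM in MDA-MB-468, 49.4 and 44.2 in SUM149PT and 46 and 46.3 in HCC38 and passed 2-fold against neither line. CA12, a carbonic anhydrase that estrogen induces, was the member that was lower, at 0.698 and 0.467 CPM in MDA-MB-468, 8.75 and 6.93 in SUM149PT and 9.38 and 9.25 in HCC38. The mucin MUC1 was higher at 115 and 93.8 CPM in MDA-MB-468, 29.7 and 34 in SUM149PT and 11.5 and 13.5 in HCC38, one of 2 higher and 0 lower among 6 tested mucins and mammary secreted genes, the other being MUC20. In the knock-down libraries FOXA1 (0.94) and MUC1 (0.76) fell short of 2-fold against SUM149PT.

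Estrogen and progesterone receptor RNA was low in all lines. Of 12 tested steroid and nuclear hormone receptors, 3 were higher and 0 lower than both lines. ESR1, the estrogen receptor α, was at 6.23 and 7.5 CPM in MDA-MB-468, 2.89 and 2.3 in SUM149PT and 0.0855 and 0.160 in HCC38, so that it passed the test (log2 fold changes 1.40 and 5.76) at a low level. NR3C2, the mineralocorticoid receptor, was at 2.15 and 2.41 CPM in MDA-MB-468, 0.108 and 0.197 in SUM149PT and 0.256 and 0.220 in HCC38. The thyroid hormone receptor THRB was at 33 and 35.6 CPM in MDA-MB-468, 10.1 and 7.45 in SUM149PT and 11.8 and 14.6 in HCC38. THRB was not called against HCC38 in the knock-down libraries (0.77). PGR, the progesterone receptor, had too few counts to be tested, at 0 and 0.0519 CPM in MDA-MB-468. ESR2, the estrogen receptor β, differed between the MDA-MB-468 libraries, at 0.940 and 0.104 CPM, and was not called. The glucocorticoid receptor NR3C1 was at 45.7 and 50.2 CPM in MDA-MB-468, 63.3 and 58.1 in SUM149PT and 53.9 and 56.3 in HCC38. The vitamin D receptor VDR was at 77.4 and 82.4 CPM in MDA-MB-468, 67.2 and 60.2 in SUM149PT and 51.6 and 62.1 in HCC38. RARG was at 102 and 108 CPM in MDA-MB-468, 123 and 123 in SUM149PT and 93.7 and 98 in HCC38. RARA was at 41 and 41.8 CPM in MDA-MB-468, 31.4 and 31.1 in SUM149PT and 53.6 and 64.7 in HCC38. None of these 4 receptors changed by 2-fold. RXRA was higher than in SUM149PT only (1.16 and 0.52), and this call was lost in the knock-down libraries (0.47) and with glmTreat, edgeR's test against the 2-fold limit itself. RARB was also higher than in SUM149PT only (3.41 and −0.92), THRA was lower than in SUM149PT only (−1.57 and −0.74), and PPARG was higher than in HCC38 only (−0.71 and 2.41).

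Most basal keratins in MDA-MB-468 lay between the other lines, and luminal KRT19 lay above both. The basal keratins KRT5 and KRT15 also lay above every library of the other lines, but neither was called higher than both. KRT19, a keratin of simple and luminal epithelium, was the 1 of 4 luminal keratins higher than both lines, at 2798 and 2697 CPM in MDA-MB-468, 737 and 784 in SUM149PT and 500.5 and 453 in HCC38. In the knock-down libraries its change against SUM149PT just missed 2-fold, and the calls of KRT7 (−0.78) and KRT17 (−0.87) against SUM149PT and of KRT16 against HCC38 (0.75) were lost. The call of KRT16 against HCC38 was also lost with glmTreat. KRT8 and KRT18, the usual partners of KRT19 in luminal cells, were higher than in HCC38 (log2 fold changes 2.23 and 1.17) but within 2-fold of SUM149PT (0.24 and 0.32). KRT7 was lower than in SUM149PT only, at 1854 and 1916 CPM in MDA-MB-468, 4394 and 4690.2 in SUM149PT and 2435 and 2281 in HCC38. Of the 8 basal keratins none was higher or lower than both lines, while 6 were lower than in SUM149PT and 6 were higher than in HCC38. KRT5, which marks basal cells, was at 2556 and 2275 CPM in MDA-MB-468, 1900.0 and 1884 in SUM149PT and 58 and 61.4 in HCC38. Its partner KRT14 was at 16.7 and 15.8 CPM in MDA-MB-468, 57.8 and 61.3 in SUM149PT and 0.577 and 0.360 in HCC38. KRT17 was at 158 and 168 CPM in MDA-MB-468, 419 and 405 in SUM149PT and 0.577 and 0.500 in HCC38. KRT16 was at 112 and 104 CPM in MDA-MB-468, 341 and 382 in SUM149PT and 51.9 and 49.1 in HCC38. KRT15 was at 117 and 119 CPM in MDA-MB-468, 19.6 and 19.5 in SUM149PT and 62.8 and 67 in HCC38. KRT6A was at 40.5 and 37.5 CPM in MDA-MB-468, 1762 and 1741 in SUM149PT and 1.75 and 1.52 in HCC38. KRT6B was at 47 and 45.5 CPM in MDA-MB-468, 233 and 246 in SUM149PT and 8.51 and 6.57 in HCC38. KRT6C, a near-identical copy of KRT6A, was at 0.0806 and 0.208 CPM in MDA-MB-468, 10.1 and 9.23 in SUM149PT and 0 and 0.180 in HCC38, and reads of these copies may be split unevenly. Per kilobase of exon, the order of mean levels in MDA-MB-468 was KRT19 (1176 CPM per kb), KRT5 (585), KRT7 (471), KRT8 (239) and KRT18 (152), whereas in SUM149PT KRT7 was at 1136, KRT5 at 458 and KRT19 at 326. Among 11 tested breast epithelial markers 4 were higher and 1 lower than both lines. The summed level of these markers was 10234 to 10633 CPM in MDA-MB-468, 9989.6 to 10378 in SUM149PT and 4106 to 4381 in HCC38.

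**Figure D4:**
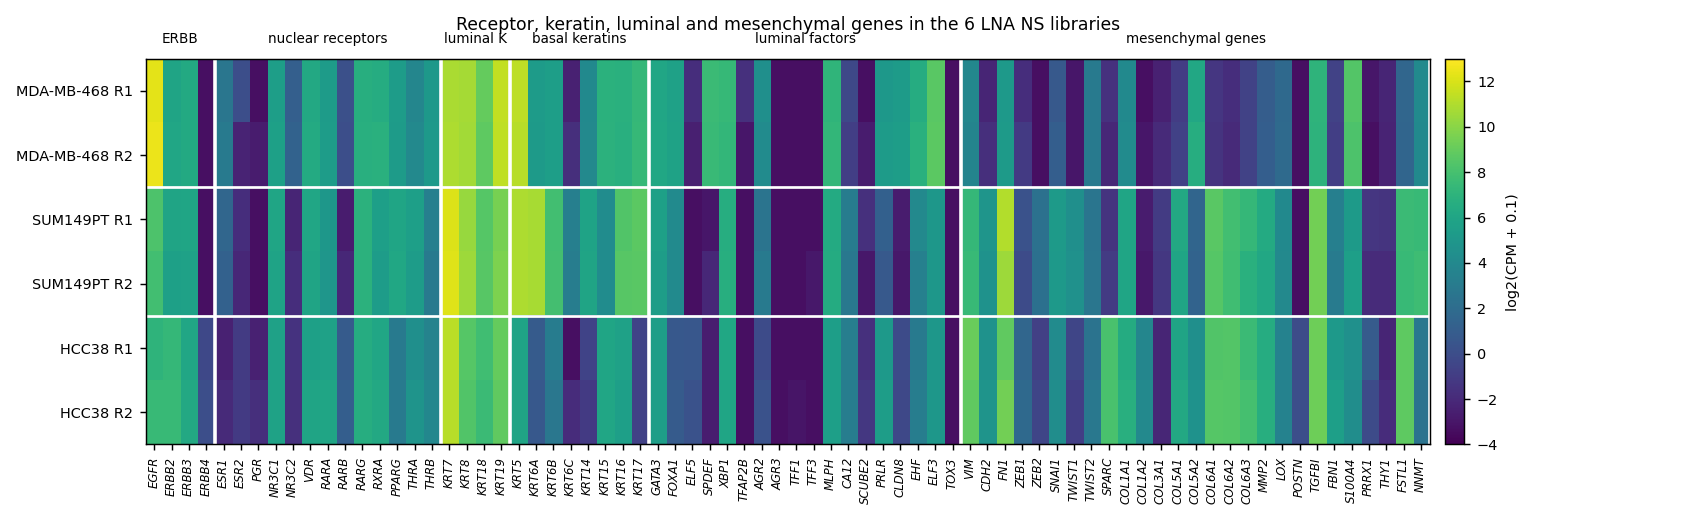
Heat map of log2(CPM + 0.1) in the 6 LNA NS libraries (rows) for ERBB receptors, nuclear receptors, luminal and basal keratins, luminal factors and mesenchymal genes (columns), from dark (low) to yellow (high). MDA-MB-468 is brightest at EGFR, KRT19, SPDEF and ELF3 and dark over most mesenchymal genes, of which 18 of 26 tested were lower than both lines.

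Among lists with at least 10 tested members, mesenchymal genes had the largest share lower than both lines. Of 26 tested, 18 were lower and 2 higher than both lines, with medians of −3.74 and −5.40 (the latter −4.37 with genes at 0 set to their bound). The 3 collagen VI chains were nearly silent. COL6A1 was at 0.295 and 0.260 CPM in MDA-MB-468, 401 and 373 in SUM149PT and 330.2 and 370.1 in HCC38. COL6A2 was at 0.188 and 0.156 CPM in MDA-MB-468, 228 and 222 in SUM149PT and 353 and 352 in HCC38. COL6A3 was at 0.537 and 0.545 CPM in MDA-MB-468, 160.5 and 109.8 in SUM149PT and 189 and 254 in HCC38. COL5A1, a fibrillar collagen chain, was at 0.403 and 0.519 CPM in MDA-MB-468, 74.8 and 63.6 in SUM149PT and 60.4 and 76.5 in HCC38. CDH2, N-cadherin, was at 0.107 and 0.208 CPM in MDA-MB-468, 29.5 and 25.4 in SUM149PT and 25.1 and 28.4 in HCC38. ZEB2, a repressor of E-cadherin, had 0 counts, against 4.97 and 4.79 CPM in SUM149PT and 0.470 and 0.639 in HCC38. VIM and FN1, named after their values were seen as the usual markers of this state, were lower as well. VIM, the intermediate filament of mesenchymal cells, was at 14.7 and 12.8 CPM in MDA-MB-468, 161 and 177 in SUM149PT and 555 and 453 in HCC38. FN1, fibronectin, was at 37.3 and 37.9 CPM in MDA-MB-468, 2071 and 1464 in SUM149PT and 458 and 667 in HCC38. The 2 exceptions were COL5A2, at 72.6 and 97.6 CPM in MDA-MB-468, 2.84 and 2.53 in SUM149PT and 22.3 and 25.1 in HCC38, and S100A4. S100A4 was at 345 and 306 CPM in MDA-MB-468, 37.7 and 47.5 in SUM149PT and 23 and 19.9 in HCC38. Fibroblast markers, 7 tested, gave 0 higher and 3 lower than both lines, COL1A1, FAP and DCN. COL1A1, a type I collagen chain, was at 16.3 and 18.5 CPM in MDA-MB-468, 64.6 and 64.1 in SUM149PT and 86 and 103 in HCC38. The protease FAP was at 1.99 and 1.87 CPM in MDA-MB-468, 32.4 and 29.8 in SUM149PT and 6.33 and 4.32 in HCC38. DCN, for decorin, had 0 counts in MDA-MB-468, against 8.05 and 10.2 CPM in SUM149PT and 0.171 and 0.160 in HCC38. The 10 fibroblast markers summed to 18.8 to 20.9 CPM in MDA-MB-468, 105 to 106 in SUM149PT and 108 to 126 in HCC38, and 6 of them were under 1 CPM in all 6 libraries.

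Genes of the basal and myoepithelial layer were lower than both lines more often than higher, but were nearly even against SUM149PT alone. Of 27 tested, 9 were lower and 3 higher than both lines, with medians of −0.52 and −1.46. Against SUM149PT 9 were higher and 10 lower, and against HCC38 3 were higher and 17 lower. LAMA3, a chain of the basement membrane protein laminin-332, was at 18.2 and 22.8 CPM in MDA-MB-468, 5216 and 4292 in SUM149PT and 231 and 274 in HCC38, log2 fold changes of −7.86 and −3.62. SNAI2, for the transcription factor SLUG, had 1 count in MDA-MB-468, against 51.3 and 53.1 CPM in SUM149PT and 3.33 and 3.4 in HCC38. CDH3, P-cadherin, was at 92.3 and 91 CPM in MDA-MB-468, 666 and 625 in SUM149PT and 477 and 511 in HCC38. The hemidesmosomal collagen COL17A1 was at 0.188 and 0.363 CPM in MDA-MB-468, 5.21 and 4.66 in SUM149PT and 1.88 and 3.06 in HCC38. Members higher than both were VTCN1, NOTCH3 and ITGB4. VTCN1, an immune checkpoint ligand, was at 122 and 104 CPM in MDA-MB-468, 0.162 and 0.131 in SUM149PT and 5.98 and 5.06 in HCC38. The receptor NOTCH3 was at 978 and 1117 CPM in MDA-MB-468, 84.1 and 63.1 in SUM149PT and 148 and 204 in HCC38. The integrin ITGB4 was at 170.2 and 174 CPM in MDA-MB-468, 85.1 and 76.3 in SUM149PT and 66.4 and 80.8 in HCC38. ITGB4 was not called in the knock-down libraries (0.81 against SUM149PT and 0.34 against HCC38).

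Epithelial adhesion genes, 32 tested, gave 3 higher and 4 lower (9.38% and 12.5%, beside 10.9% and 11.8% of all genes tested). Those above both lines were TJP3, GRHL1 and DSP. TJP3, a tight junction scaffold, was at 109.8 and 104 CPM in MDA-MB-468, 1.92 and 2.73 in SUM149PT and 9.19 and 11 in HCC38. GRHL1, a grainyhead factor, was at 85.3 and 87.2 CPM in MDA-MB-468, 11 and 9.19 in SUM149PT and 7.65 and 9.47 in HCC38. DSP, for the desmosomal protein desmoplakin, was near the 2-fold limit (1.18 and 1.06) and fell short of it against HCC38 without MDA-MB-468 replicate 2 (0.95) or HCC38 replicate 1 (0.87) and against SUM149PT without SUM149PT replicate 2 (0.97). CDH1, E-cadherin, was lower than both lines at 101 and 115 CPM in MDA-MB-468, 499 and 413 in SUM149PT and 266 and 324 in HCC38, log2 fold changes of −2.08 and −1.45. In the knock-down libraries CDH1 stood at −0.99 against HCC38 and was not called. The desmosomal genes PKP1 and DSG2 were lower too, PKP1 at 0.913 and 0.883 CPM in MDA-MB-468, 172 and 152 in SUM149PT and 41.9 and 47.3 in HCC38. DSG2 was at 74.6 and 78.1 CPM in MDA-MB-468, 244 and 195 in SUM149PT and 512 and 580.2 in HCC38. The epithelial factor OVOL1 was also lower, at 3.87 and 4.13 CPM in MDA-MB-468, 15 and 13.4 in SUM149PT and 19.9 and 19.8 in HCC38. OVOL1 fell short of 2-fold against SUM149PT in the knock-down libraries (−0.84).

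Cytokine genes and targets of NF-κB were mostly lower in MDA-MB-468. Of 30 tested, 19 were lower and 1 higher than both lines, with medians of −3.35 and −2.43 (the latter −2.06 with genes at 0 set to their bound). The summed level of the list differed less, at 804 to 862 CPM in MDA-MB-468, 2181 to 2223 in SUM149PT and 1010 to 1022 in HCC38. The neutrophil chemokine CXCL1 was at 2.26 and 2.34 CPM in MDA-MB-468, 484 and 528 in SUM149PT and 92.6 and 86.2 in HCC38, log2 fold changes of −7.78 and −5.28. IL32 was at 0.134 and 0.130 CPM in MDA-MB-468, 161 and 184 in SUM149PT and 8.68 and 7.11 in HCC38. CXCL6 had 0 counts in MDA-MB-468, against 0.459 and 0.755 CPM in SUM149PT and 12.9 and 10.9 in HCC38. IL1A also had 0 counts, with 30.7 and 29.3 CPM in SUM149PT and 0.278 and 0.360 in HCC38. CSF3, for the granulocyte colony-stimulating factor, had 0 counts too, with 22.8 and 24 CPM in SUM149PT and 0.0855 and 0.0799 in HCC38. CSF2, for GM-CSF, was at 0.0806 and 0 CPM in MDA-MB-468, 6.08 and 7.72 in SUM149PT and 2.82 and 2.28 in HCC38. These genes were thus at or near 0 in MDA-MB-468, and the other lines differed widely from each other. The exception was the membrane-bound chemokine CX3CL1, at 93 and 95.9 CPM in MDA-MB-468, 0.0810 and 0.0657 in SUM149PT and 33.2 and 33.5 in HCC38.

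Interferon-stimulated genes, 38 tested, gave 0 higher and 10 lower than both lines, with medians of −0.59 and −2.68. Against SUM149PT 8 were higher and 13 lower, and against HCC38 3 were higher and 28 lower. OASL was at 0.725 and 0.779 CPM in MDA-MB-468, 13.3 and 13.2 in SUM149PT and 234 and 231 in HCC38. IFI6 was at 0.940 and 1.22 CPM in MDA-MB-468, 11 and 8.7 in SUM149PT and 48.7 and 44.7 in HCC38. IFI27 was at 0.242 and 0.0519 CPM in MDA-MB-468, 24.3 and 25.5 in SUM149PT and 2.86 and 3.54 in HCC38. IFI44L was at 0.0806 and 0.0260 CPM in MDA-MB-468, 7.7 and 5.94 in SUM149PT and 9.51 and 9.59 in HCC38. In the MHC class I list 0 of 16 were higher and 1 was lower than both lines. Against SUM149PT 7 were higher and 1 lower, and against HCC38 0 were higher and 8 lower. The summed level of that list was 2365 to 2515 CPM in MDA-MB-468, 1233 to 1279 in SUM149PT and 5161 to 5667 in HCC38. The lower gene was ERAP2, a peptide-trimming aminopeptidase. It was at 4.3 and 5.32 CPM in MDA-MB-468, 22 and 20.5 in SUM149PT and 66.1 and 66.7 in HCC38. Of 11 tested MHC class II genes, 0 were higher and 4 lower, all at low levels: the summed level of the list was 9.35 to 10.1 CPM in MDA-MB-468, 8.7 to 9.18 in SUM149PT and 61.8 to 65.2 in HCC38. CD74, the invariant chain, was at 0.0537 and 0.234 CPM in MDA-MB-468, 0.783 and 0.427 in SUM149PT and 4.81 and 4.8 in HCC38. CD74 was not called against SUM149PT in the knock-down libraries (−0.84). HLA genes vary in sequence between lines, which can change how many reads map, and this was not tested.

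Some genes of keratinizing and secretory epithelium stood out in MDA-MB-468. Of 29 epidermal differentiation and secreted barrier genes tested, 8 were higher and 1 lower than both lines (27.6% and 3.45%, beside 10.9% and 11.8% of all genes tested). S100A9 and S100A8, which together form calprotectin, were both higher. S100A9 was at 1056 and 819 CPM in MDA-MB-468, 9.62 and 12.9 in SUM149PT and 113 and 91.4 in HCC38. S100A8 was at 128 and 100.4 CPM in MDA-MB-468, 1.57 and 1.84 in SUM149PT and 6.69 and 5.63 in HCC38. S100A7, psoriasin, was at 238 and 185 CPM in MDA-MB-468, 0.189 and 0.328 in SUM149PT and 0.107 and 0.0400 in HCC38, and its near-identical neighbor S100A7A at 14.2 and 14.4 CPM with 0 or 1 count in each other library. KLK8, a kallikrein protease, was at 14.6 and 12.6 CPM, 0 counts in SUM149PT and 0.449 and 0.300 CPM in HCC38. SERPINB5, maspin, was the member that was lower, at 16.2 and 13.6 CPM in MDA-MB-468, 394 and 399 in SUM149PT and 139 and 131 in HCC38.

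Of 14 stem-cell-associated markers tested, 5 were higher and 3 lower than both lines (35.7% and 21.4%, beside 10.9% and 11.8% of all genes tested). PROM1, CD133, was at 72 and 72.3 CPM in MDA-MB-468, 0.0810 and 0 in SUM149PT and 8.21 and 7.89 in HCC38. CD44 was at 2006 and 1903 CPM in MDA-MB-468, 794 and 738 in SUM149PT and 773 and 817 in HCC38. The retinal dehydrogenase gene ALDH1A1 was at 15.6 and 16.2 CPM in MDA-MB-468, 3.32 and 3.25 in SUM149PT and 2.33 and 1.96 in HCC38. ALDH1A2 was at 5.53 and 5.32 CPM and under 0.1 CPM in every other library. ABCG2, a drug efflux pump, was lower at 0.107 and 0 CPM in MDA-MB-468, 22.7 and 20.9 in SUM149PT and 1.62 and 1.9 in HCC38. The integrin ITGB1 was lower too, at 116 and 152 CPM in MDA-MB-468, 428 and 371 in SUM149PT and 859.9 and 938 in HCC38.

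Wnt pathway genes differed in both directions, 7 higher and 7 lower than both lines of 36 tested (19.4% each, beside 10.9% and 11.8% of all genes tested). The ligands WNT6 and WNT7B were higher, WNT6 at 207 and 209 CPM in MDA-MB-468, 0.891 and 1.08 in SUM149PT and 16.1 and 16.2 in HCC38. WNT7B was at 132 and 142 CPM in MDA-MB-468, 3.67 and 4.6 in SUM149PT and 26.1 and 30.5 in HCC38. WNT4 was at 13.3 and 12.9 CPM in MDA-MB-468, 0.702 and 0.854 in SUM149PT and 0.577 and 0.719 in HCC38. AXIN2, a feedback inhibitor and common readout of β-catenin signaling, was at 18.2 and 19.8 CPM, with 0 and 0.0328 in SUM149PT and 0.0641 and 0.440 in HCC38. The receptor FZD8 was lower at 0.134 and 0.182 CPM in MDA-MB-468, 19.96 and 18.4 in SUM149PT and 15.3 and 16.5 in HCC38. The secreted inhibitor DKK1 was at 74.2 and 77.5 CPM in MDA-MB-468, 201 and 211 in SUM149PT and 350.1 and 319.7 in HCC38. LEF1, a partner of β-catenin on DNA, was at 0 and 0.0779 CPM in MDA-MB-468, 9.05 and 9.59 in SUM149PT and 0.299 and 0.160 in HCC38. DKK1 was not called in the knock-down libraries (−0.06 against SUM149PT and −0.97 against HCC38). The Notch list, 18 tested, gave 4 higher and 4 lower (22.2% each). NOTCH3, HES4 and MFNG were among those higher. HES4, a Notch target, was at 174 and 178 CPM in MDA-MB-468, 41.4 and 43.2 in SUM149PT and 43.9 and 40.6 in HCC38. MFNG, which glycosylates Notch receptors, was at 11.1 and 9.5 CPM in MDA-MB-468, 1.43 and 2.04 in SUM149PT and 3.23 and 3.58 in HCC38. Among the lower members the Notch target NRARP was at 7.25 and 6.88 CPM in MDA-MB-468, 21.9 and 22 in SUM149PT and 25.9 and 23.1 in HCC38. The ligand DLL4 was at 0.161 and 0.156 CPM in MDA-MB-468, 1.86 and 1.61 in SUM149PT and 0.449 and 0.659 in HCC38. DLL4 was not called against HCC38 in the knock-down libraries (−0.98).

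Glucocorticoid-induced genes, 18 tested, gave 4 higher and 1 lower than both lines (22.2% and 5.56%). Of the media only that of SUM149PT held hydrocortisone. TSC22D3, for the anti-inflammatory protein GILZ, was at 130.1 and 134 CPM in MDA-MB-468, 17.4 and 16.3 in SUM149PT and 14.8 and 13.9 in HCC38. GLUL, glutamine synthetase, was at 245 and 251 CPM in MDA-MB-468, 10.7 and 12 in SUM149PT and 96.1 and 102 in HCC38. ANGPTL4 was lower at 2.07 and 1.51 CPM in MDA-MB-468, 39.5 and 41.9 in SUM149PT and 42.2 and 39.4 in HCC38. Against SUM149PT alone 5 of the 18 were higher and 8 lower, with a median log2 fold change of −0.90, and against HCC38 6 were higher and 1 lower, with a median of 0.32. Sterol and fatty acid synthesis, 33 tested, gave 4 higher and 3 lower (12.1% and 9.09%, beside 10.9% and 11.8% of all genes tested). The fatty acid desaturases FADS1 and FADS2, whose annotated genes overlap on opposite strands, were lower. FADS1 was at 3.63 and 4.44 CPM in MDA-MB-468, 198 and 176 in SUM149PT and 106 and 117 in HCC38. FADS2 was at 4.03 and 4.21 CPM in MDA-MB-468, 94.7 and 84.4 in SUM149PT and 135 and 147 in HCC38. The elongase ELOVL6 was at 11.9 and 11.5 CPM in MDA-MB-468, 56.3 and 56.9 in SUM149PT and 37 and 36.5 in HCC38. MVD and SC5D, of cholesterol synthesis, were higher. MVD was at 189.6 and 186 CPM in MDA-MB-468, 59 and 66.1 in SUM149PT and 46.9 and 44.6 in HCC38. SC5D was at 73.7 and 64.6 CPM in MDA-MB-468, 8.53 and 7.95 in SUM149PT and 13.7 and 9.93 in HCC38. Of 7 tested metallothioneins, which bind zinc and copper, 0 were higher and 1 lower than both lines (0% and 14.3%). The lower one, MT1E, was at 3.6 and 4.54 CPM in MDA-MB-468, 158 and 188 in SUM149PT and 113 and 92 in HCC38. Reads of these similar genes may be split unevenly.

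HOX genes, 28 tested, gave 0 higher and 3 lower (0% and 10.7%, beside 10.9% and 11.8% of all genes tested). HOXC8 was at 1.75 and 2.1 CPM in MDA-MB-468, 9.4 and 8.34 in SUM149PT and 19.6 and 18.8 in HCC38. HOXA9 was at 0.0806 and 0.467 CPM in MDA-MB-468, 4.19 and 4.5 in SUM149PT and 1.07 and 1.12 in HCC38. HOXA7 was at 0.0537 and 0.0260 CPM in MDA-MB-468, 0.243 and 0.328 in SUM149PT and 0.876 and 0.739 in HCC38, and its call against SUM149PT was lost in the knock-down libraries (−0.17). Of 14 imprinted genes 2 were higher and 2 lower than both lines, 14.3% each and near the shares of all genes tested. GRB10, an adaptor that inhibits the insulin receptor, was at 52.9 and 56.4 CPM in MDA-MB-468, 3.32 and 3.15 in SUM149PT and 14 and 15.3 in HCC38. The lncRNA KCNQ1OT1, which runs antisense inside KCNQ1, was at 0.134 and 0.0519 CPM in MDA-MB-468, 20.9 and 17.2 in SUM149PT and 19.4 and 28.1 in HCC38. GRB10 was not called against HCC38 in the knock-down libraries (0.54). LINC01956, the lncRNA that the study knocked down, was the lowest in MDA-MB-468 of the 3 lines: 0.779 and 0.597 CPM in MDA-MB-468, 10.7 and 11.3 in SUM149PT and 14.3 and 14.7 in HCC38, log2 fold changes of −4.00 and −4.39. Its neighbor EN1, a homeobox factor of basal-like breast cancer, was lower too, at 9.37 and 8.91 CPM in MDA-MB-468, 20.9 and 26.1 in SUM149PT and 53.8 and 60.1 in HCC38, log2 fold changes of −1.36 and −2.64.

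**Figure D5:**
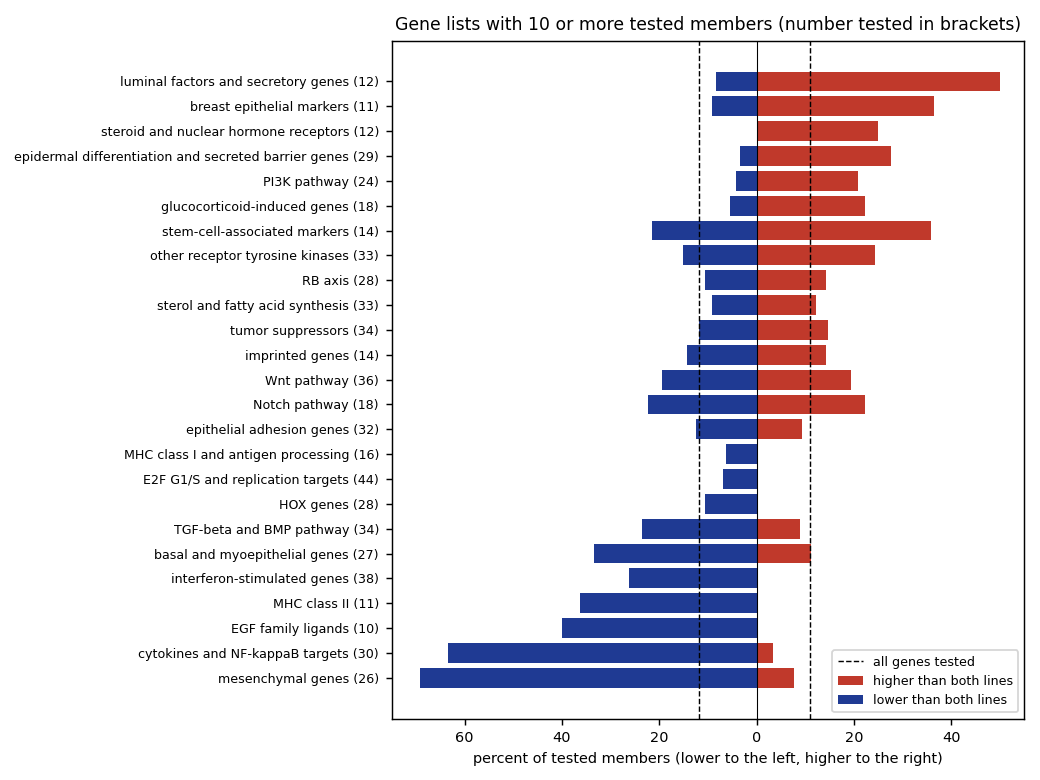
Percent of tested members higher (red, right) and lower (blue, left) in MDA-MB-468 than in both other lines, for each gene list with at least 10 tested members, with dashed lines at the 10.9% and 11.8% of all genes tested. Mesenchymal genes (18 of 26) and cytokine and NF-κB genes (19 of 30) extend farthest to the left, and luminal factors (6 of 12) farthest to the right.

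Markers of other cell types are given here with their levels, and their part in the results was not tested. Of 15 immune cell markers 12 were under 1 CPM in all 6 libraries and 4 had enough counts to be tested, of which CSF1R alone was higher than both lines, at 14.5 and 13.7 CPM in MDA-MB-468, 4.86 and 4.56 in SUM149PT and 1.41 and 2.1 in HCC38. The summed level of these 15 was 27.3 to 29.4 CPM in MDA-MB-468, 12.3 to 14.2 in SUM149PT and 13.7 to 14 in HCC38. Of the 15, 5 had 0 counts in all 6 libraries. Endothelial and erythroid markers gave 2 higher and 0 lower of 4 tested, both endothelial: KDR, the VEGF receptor, at 4.24 and 5.01 CPM in MDA-MB-468, 0.0270 and 0.0985 in SUM149PT and 0.898 and 1.54 in HCC38. CDH5 was at 1.67 and 2.26 CPM in MDA-MB-468, 0.243 and 0.427 in SUM149PT and 0.0427 and 0.0400 in HCC38. Of the 11 endothelial and erythroid markers found, 8 were under 1 CPM in all 6 libraries and 3 had 0 counts throughout. Their summed level was 6.37 to 7.56 CPM in MDA-MB-468, 3.92 to 5.25 in SUM149PT and 1.5 to 2.0 in HCC38. The shares of called genes differed between chromosomes. Of tested protein-coding genes on chromosome 7, 17.1% were higher and 10.5% lower than both lines, and on chromosome 6, 16.3% and 6.83%. On chromosome 8 they were 7.17% and 21.9%, on chromosome 13, 10.6% and 20.7%, and on chromosome 12, 4.16% and 16.6%, beside 10.3% and 11.2% over all chromosomes.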

How the data were processed

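Poly-A RNA of the 6 LNA NS libraries, 2 for each of 3 lines, was sequenced by the authors from strand-specific libraries. The deposited values are whole-number read counts per gene in GRCh37 with Ensembl identifiers, made with HTSeq 0.6.0 according to the submitters' processing notes. Those notes list TopHat2 2.0.13 as aligner, whereas the methods of the study name STAR. The annotation release and the strand setting of the counting are not given in the sources used here. Summary rows of the counter (no feature, ambiguous, not unique) held 40.8% to 53.7% of each total and were left out. Gene symbols, positions and classes came from the reference annotation for 55665 of 63677 identifiers, and the unmatched ones held 0.636% of gene counts.

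Counts were filtered (edgeR filterByExpr, minimum count 10, minimum total 15), TMM-normalized and fitted by edgeR 4.0.16 (R 4.3.3) with glmQLFit and glmQLFTest over the 6 libraries, leaving 3 residual degrees of freedom. p-values were adjusted by Benjamini-Hochberg over 19590 genes, separately in each comparison. Calls required an adjusted p under 0.1 and a change over 2-fold. Standard errors were derived as the size of the log2 fold change divided by the square root of the quasi-likelihood F statistic. They are approximate and can be too small where a line has few counts. Where a group had 0 counts, folds are bounds against a floor of 3 counts over its 2 libraries. In simulated counts for the same comparison over 19590 genes, 42% of 50 genes changed by 1.5-fold, 96% of 50 changed 2-fold and 100% of 50 changed 4-fold were recovered against both lines.

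Named genes were EGFR, RB1, LINC01956 and EN1, the 12 protein-coding genes with the largest differences in each direction (by the smaller of both log2 fold changes, with at least 10 CPM where the gene was high), up to 12 lost and 12 private genes by level, all ERBB and nuclear receptors and keratins, up to 6 called members per direction of each other list, and genes within 1 Mb of EGFR, RB1, SMAD4 and CDKN2A. Some genes that this rule takes in are not reported here. The chromosome 16 segment, the other members of the runs, VIM, FN1 and GATA3 were chosen after their values were seen. The members and the 35 gene lists were chosen with earlier results of these data known, and 6 of 771 list entries matched no gene. Alternatives were DESeq2 1.42.0, other scalings, filters and thresholds, glmTreat, all 12 libraries in one fit, the knock-down libraries, a replicate block and leaving out each library. Same-numbered libraries of different lines did not deviate together (correlations of −0.11, 0.16 and −0.14), so the numbers were not treated as pairs.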

Additional observations from a re-analysis of the deposited data

How the results depend on the processing

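With 2 libraries per line and line confounded with medium, the comparisons cover these libraries only, and calls near 2-fold were uncertain. By adjusted p and direction alone, 42% of simulated 1.5-fold changes and 96% of 2-fold changes were recovered. These shares leave out the 2-fold rule and so are not rates of calls. They also leave out genes at low levels. Simulated 2-fold changes had a median log2 size of 0.98, so a true 2-fold change can fall short of the limit. Low-count genes have wide errors. With DESeq2, 1980 genes were higher and 2162 lower than both lines. Requiring at least 10 counts in every library removes genes near 0 in 1 line and left 1161 higher and 1094 lower than both lines, 2371 and 2190 against SUM149PT and 2504 and 2402 against HCC38. No other alternative moved these counts by more than 1.5 times. Library size scaling gave 2242 higher and 2206 lower than both. Without 1 library at a time the counts were 2042 to 2195 and 2200 to 2310. With a replicate block they were 2086 and 2234, but the shared numbers did not pair the libraries. In the knock-down libraries they were 2103 and 2484, of which 1434 and 1694 were also called in the LNA NS libraries (67.2% of 2133 and 73.5% of 2304).

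Lost genes numbered 93 with a limit of 0.2 CPM in MDA-MB-468 and 105 with 2 CPM elsewhere, and private genes 34 and 36. Private genes were 9 in the knock-down libraries. Without 1 library, lost genes ranged from 61 to 77 and private genes from 21 to 24.

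For the 206 genes named, 6320 of 6388 comparisons between an alternative and the main value kept direction and side of the threshold, 48 fell below it, 9 passed it and 11 changed sign. Most of these genes were chosen for their values in the same libraries, which most alternatives fit again, so this agreement was largely set in advance. The filter of 10 counts in every library left 238 of 410 gene comparisons. In the knock-down libraries the sign changed for VDR (−0.24 against SUM149PT, −0.38 against HCC38), RARG (0.27 and −0.012), ERBB2 against SUM149PT (−0.034), RARB against HCC38 (0.67) and IFNE against HCC38 (−0.18). Without 1 library, ESR2 ranged from −0.62 to 2.52 against SUM149PT and from −1.81 to 1.33 against HCC38, the negative values being those without MDA-MB-468 replicate 1. KRT6C against HCC38 ranged from −0.31 to 5.49 and was negative without MDA-MB-468 replicate 2 or HCC38 replicate 1. With glmTreat, which tests against the 2-fold limit itself, the calls of DSP and NMRAL1 against both lines, of ITGB4, CDK4 and RXRA against SUM149PT and of MCM4, IFNE and KRT16 against HCC38 were lost. The causes were not tested.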
